A study of Danio rerio with 6 samples.

Results

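The long arm of zebrafish chromosome 4 was analysed as the stretch of GRCz11 that starts at 27000000 on that chromosome. ATAC-seq peaks of 6 lists were merged into regions when they shared at least 1 base, and a region belonged to the long arm when it started at or beyond this position. The long arm held 1610 of the 85003 regions (1.89%). Chromosome 4 before 27000000, called the rest of chromosome 4, held 1904 regions, the other 24 chromosomes held 80043, unplaced scaffolds held 1436 and the mitochondrial genome held 10. The last long arm region ended at 78056398, so the span covered was 51.056 Mb.

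The samples were pools of AB wild-type embryos collected at 5.5 h post-fertilisation (hpf), during epiboly. Embryos of 3 samples had been exposed to the Ezh2 inhibitor PF-06726304 acetate at 5 μM (Ezh2i), and embryos of 3 control samples had solvent (DMSO) without the inhibitor. The exposures were made in triplicate wells, and nothing in the labels says that the wells came from separate clutches, so p-values measure the spread between these samples, which may be technical. Whole embryos were used, so a region can be open in few cells or in many, and these cannot be told apart.

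ATAC-seq finds open chromatin by the places where the transposase Tn5 can insert adapters. The long arm of chromosome 4 is known in zebrafish as a repeat-rich, late-replicating and largely heterochromatic arm, which carries 5S ribosomal RNA genes and large families of zinc finger and NLR-type immune genes, and whose distal end is linked to sex in wild strains. Ezh2 is the subunit of Polycomb repressive complex 2 that methylates lysine 27 of histone H3, a mark of repressed genes. Regions are named by position and not by gene, since no annotation of this build was used here.

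The caller received 6404036, 6363712 and 6444742 fragments in Ezh2i samples 1, 2 and 3, against 5894731, 6419574 and 6877909 in controls 1, 2 and 3. The lists held 56725, 49817 and 57178 peaks in the Ezh2i samples, against 50270, 52026 and 48291 in the controls. Control 3 thus combined the most fragments with the fewest peaks, and the 2 longest lists were both from Ezh2i samples. Of these peaks, 904, 796 and 1007 lay on the long arm in the Ezh2i samples, against 782, 865 and 715 in the controls. The height of a peak is the number of fragments over its summit, and the lowest height listed was 5, so many peaks rest on few fragments.

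Open regions were sparse on the long arm. It held 31.5 regions per Mb, against 70.5 on the rest of chromosome 4 and 63.2 on the other chromosomes. Regions covered 0.46% of the long arm span, against 1.16% of the rest of chromosome 4 and 1.05% of the other chromosomes. The median gap between a long arm region and the next was 15024 bases, against 7362.5 on the rest of chromosome 4 and 8139 elsewhere. Close spacing was also less frequent, as 11.9% of the long arm gaps were under 1000 bases, against 14.9% and 15.3%.

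The sparseness was present in each library. Peaks per Mb on the long arm were 17.7, 15.6 and 19.7 in Ezh2i samples 1, 2 and 3, and 15.3, 16.9 and 14 in controls 1, 2 and 3. Set beside the other 24 chromosomes and the rest of chromosome 4, the long arm had the fewest peaks per Mb of the 26 units in all 6 samples. The next lowest unit was chromosome 12 or 18, with 37.3, 32.4 and 37.9 peaks per Mb in the Ezh2i samples and 33.2, 34.6 and 31.2 in the controls, so the ranges of the long arm and of its nearest neighbour did not overlap. Over the 6 samples the long arm held 22.6 ± 1.13 (SD, n = 6) fewer peaks per Mb than the other chromosomes, with means of 16.6 and 39.1 (two-sided exact sign-flip permutation test, p = 0.03125, the smallest that 6 samples allow). The difference from the rest of chromosome 4, which averaged 42.3 peaks per Mb, was -25.8 ± 0.825 (SD, n = 6, same exact test, p = 0.03125), and -17.1 without peaks under 120 bases. Such within-sample differences were tested for 8 pairs of values, all had the same sign in 6 of 6 samples, and all had an adjusted p of 0.03125. The samples are of 1 genome, so this test speaks for the repeat of a difference across libraries. An exception among the 8 is the percent of peaks in regions of all 6 lists, which all lists set jointly.

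**Figure D1:**
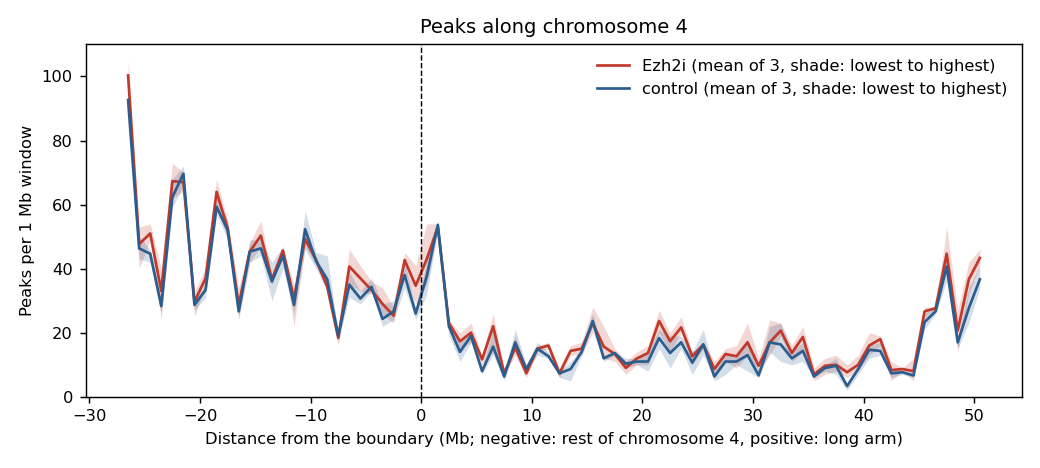
Peaks per 1 Mb window along chromosome 4 (y axis) against the distance in Mb from the start of the long arm (x axis), with the mean of 3 Ezh2i samples and of 3 controls as lines and their lowest to highest value as shading. The lines of both exposures stay low over most of the long arm and run higher in its first 2 Mb and near its distal end.

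The plot of peaks along the chromosome shows that the arm was not evenly sparse. In full windows of 1 Mb, the long arm held 13 to 91 regions with a median of 28 over 51 windows, against 35 to 138 with a median of 65 over 27 windows on the rest of chromosome 4. On the other chromosomes 1282 windows held 3 to 142 regions with a median of 61.5. These included the partial last windows of chromosomes and left out any window without a region. Of the 51 long arm windows, 47 lay under that median. In windows of 100000 bases, 80 of 511 long arm windows (15.7%) held no region, against 370 of 12680 (2.92%) on the other chromosomes. A window with no region may hold open chromatin below the height at which a peak is called. The sources used here do not give a filter on mapping quality, which sets how many reads of repeated sequence are kept. Its part in the density, the empty windows, the heights and the background of this repeat-rich arm was not tested.

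This course is described in 3 stretches, whose limits were chosen after the windows had been seen. The first, from 27000000 to 30000000, held 199 regions at 66.3 per Mb, a density like that of the rest of chromosome 4. The middle, from 30000000 to 72000000, held 1083 regions at 25.8 per Mb. The distal stretch, the last 6.06 Mb, held 328 regions at 54.2 per Mb. In the middle stretch the samples had 13.7, 11.95 and 15.9 peaks per Mb with Ezh2i, against 12, 13.4 and 10.3 in the controls. The corresponding values were 43, 37.3 and 38.7 against 37.3, 40.3 and 35.7 in the first stretch. In the distal stretch they were 32.7, 30.05 and 37.15 with Ezh2i, against 27.4, 30.05 and 29.1. The order of the stretches was thus the same in all 6 samples, with the middle lowest and the first highest. Regions found in all 6 lists made the contrast steeper, at 20.3, 5.48 and 14.03 per Mb in the first, middle and distal stretches.

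Long arm regions were also found again less often from list to list. A peak in all 6 lists was present in 376 of the 1610 regions (23.4%), against 628 of 1904 (33.0%) on the rest of chromosome 4 and 35.7% on the other chromosomes. At the other end, 548 long arm regions (34.0%) were in 1 list alone, against 28.0% on the rest of chromosome 4 and 25.8% on the other chromosomes. The remaining long arm regions were 241 in 2 lists, 170 in 3, 148 in 4 and 127 in 5. Regions in 1 list alone had a median height of 8 fragments on the long arm and in both comparison sets.

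**Figure D2:**
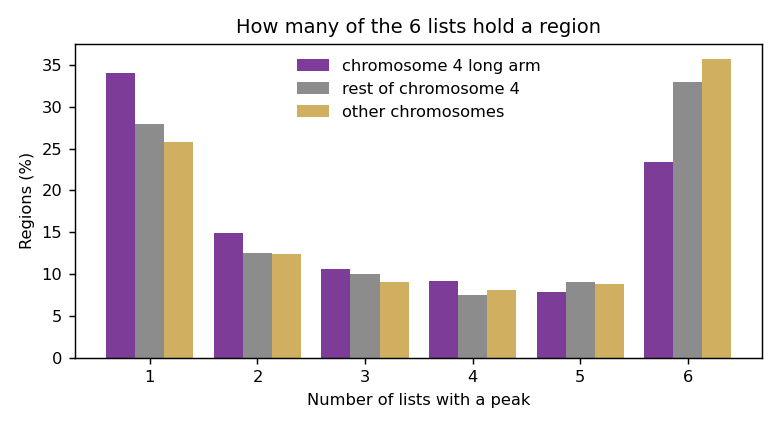
Percent of regions (y axis) by the number of lists, 1 to 6, with a peak in the region (x axis), for the long arm, the rest of chromosome 4 and the other chromosomes. The long arm bar is the tallest of the 3 at 1 list (34.0%) and the lowest at 6 lists (23.4%).

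Counted over peaks, the percent that lay in a region of all 6 lists was 42.5, 48.0 and 38.0 in Ezh2i samples 1, 2 and 3 on the long arm, and 48.5, 44.3 and 53.8 in controls 1, 2 and 3. The other chromosomes had 53.7, 61.3 and 53.6 in the Ezh2i samples and 60.7, 58.7 and 63.2 in the controls. The long arm lay below the other chromosomes within each sample, by 12.7 ± 2.23 percentage points (SD, n = 6, exact sign-flip permutation test, p = 0.03125). All 6 lists jointly set which regions count, so the 6 differences are not separate and this p does not measure repeat across libraries. Peaks of 1 list alone were 112, 75 and 162 of the long arm peaks in the Ezh2i samples (12.4%, 9.42% and 16.1%) and 65, 89 and 45 in the controls (8.31%, 10.3% and 6.29%). The 2 longest lists thus gave the most peaks of their own on the long arm, and the shortest list gave the fewest.

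Peaks of the long arm were lower and shorter than those elsewhere. Their median height was 12 fragments over the 6 samples, against 15.7 on the other chromosomes, a difference of -3.67 ± 0.516 (SD, n = 6, exact sign-flip permutation test, p = 0.03125). Peaks of 5 to 9 fragments made up 33.3% of the long arm peaks, against 21.5% of those on the other chromosomes, and peaks of 50 or more made up 5.72%, against 10.7%. The median length was 119, 118 and 117 bases in Ezh2i samples 1, 2 and 3 and 120, 121 and 115 in controls 1, 2 and 3. On the other chromosomes it was 138, 136 and 135 bases in the Ezh2i samples and 137, 137 and 132 in the controls. Every long arm value lay below every value of the other chromosomes, with a mean difference of -17.5 ± 1.05 bases (SD, n = 6, same exact test, p = 0.03125), or -11.5 bases without peaks under 120 bases. Low peaks are also short, but within each band of height the long arm peaks had the shorter mean of median lengths. It was 96.4 ± 2.33 against 100.5 ± 1.64 bases for heights of 5 to 9 (SD, n = 6). For heights of 15 to 19 it was 129.7 ± 5.47 against 133 ± 2.76, within the spread. For heights of 50 or more, a band without an upper limit, it was 209 ± 5.39 against 228 ± 2.48. These differences in length by band were not tested.

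At a like height, peaks of the long arm and of other chromosomes were found again at nearer rates. Among peaks of 5 to 9 fragments, 13.2% ± 5.81 on the long arm and 13.4% ± 4.95 on the other chromosomes lay in a region of all 6 lists (SD, n = 6). For 15 to 19 fragments the values were 64.9% ± 7.49 on the long arm and 64.7% ± 7.01 elsewhere. In the bands of 10 to 14, 20 to 29 and 30 to 49 fragments the long arm was lower, at 33.3%, 82.5% and 93.2%, against 37.5%, 85.7% and 97.4%. These differences by band were not tested.

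**Figure D3:**
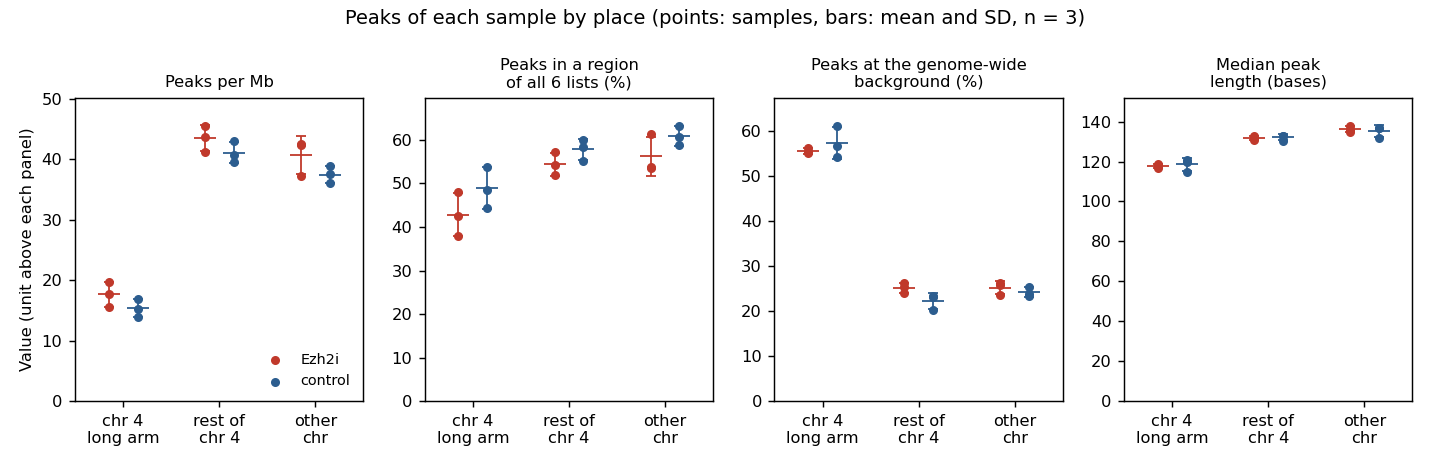
Values of each sample (points) with mean and SD (bars, n = 3) for Ezh2i samples and controls on the long arm, the rest of chromosome 4 and the other chromosomes, for peaks per Mb, the percent of peaks in a region of all 6 lists, the percent of peaks at the genome-wide background and the median peak length in bases. The long arm points do not overlap those of the other sets for peaks per Mb, the genome-wide background and length, while in the panel of all 6 lists control 3 on the long arm (53.8%) reaches into the range of the other sets.

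The background against which the caller judged a peak also differed. The caller takes the larger of a local background, from the 10000 bases around the peak, and a genome-wide background that serves as a floor. This floor was 0.3359 to 0.3819 fragments in these libraries. The local background comes from the same library as the peak, so it also counts the peak's own fragments. The background behind a long arm peak had a median of 0.363 fragments over the 6 samples, against 0.591 on the other chromosomes, a difference of -0.228 ± 0.0202 (SD, n = 6, exact sign-flip permutation test, p = 0.03125). Peaks within 2% of the floor were 55.3%, 56.2% and 55.0% of the long arm peaks in Ezh2i samples 1, 2 and 3, and 54.1%, 56.5% and 61.1% in controls 1, 2 and 3. The other chromosomes had 25.7%, 23.7% and 26.3% in the Ezh2i samples and 23.7%, 25.5% and 23.4% in the controls, so the values of the 2 sets did not overlap. The difference was 31.7 ± 3.22 percentage points (SD, n = 6, same exact test, p = 0.03125). Most long arm peaks were at the floor in each sample, so their median background is the floor value and not a measured local one. The difference in background and that in peaks at the floor are therefore not separate results. Peaks of 5 to 9 fragments had a median background of 0.363 on the long arm and in both comparison sets. The part of the background in the difference in height was not tested. The fold enrichment, which is the height over this background with 1 added to each, had a median of 8.66 on the long arm and 9.74 on the other chromosomes, a difference of -1.09 ± 0.212 (SD, n = 6, same exact test, p = 0.03125), or -0.619 without peaks under 120 bases.

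The rest of chromosome 4 had a median background of 0.592 fragments, near that of the other chromosomes, while its fold enrichment of 9.29 and length of 132.1 bases were lower than theirs in all 6 samples. The long arm differed from the rest of chromosome 4 by -2.83 fragments in median height, -0.632 in fold enrichment, -0.229 fragments in background, -13.8 bases in length and 32.6 percentage points in peaks at the floor. The background varied along the arm as the density did. Peaks of the first, middle and distal stretches had backgrounds of 0.616, 0.373 and 0.493 fragments, and 27.6%, 69.2% and 36.6% of them were at the floor. These values pool the peaks of all 6 samples, and most peaks of the middle stretch were at the floor. Background and density had the same order over the stretches, which were chosen after the densities had been seen. A local background also counts the fragments of neighbouring peaks, so the 2 are not separate here. The part of the one in the other was not tested.

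Among regions in all 6 lists, the long arm combined low typical heights with a few very tall members. The median of the mean heights was 20.5 fragments over 376 long arm regions, against 22.75 on the rest of chromosome 4 and 24.7 on the other chromosomes. A mean height of 100 or more was reached by 13 long arm regions (3.46%), 11 on the rest of chromosome 4 (1.75%) and 910 on the other chromosomes (3.18%). A mean height of 200 or more was reached by 4 long arm regions (1.06%), by 0 of 628 on the rest of chromosome 4 and by 27 on the other chromosomes (0.0944%). The counts of the very tall regions are small, and no test was made of them. Whether reads of repeated sequence add to these heights was not tested either.

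The tallest long arm region, of 209 bases, ran from 63365137 to 63365345. Its heights were 364, 354 and 348 fragments in Ezh2i samples 1, 2 and 3, against 476, 359 and 344 in controls 1, 2 and 3. The highest value was that of control 1, and the others of both exposures overlapped. The log2 difference of Ezh2i less control after quantile normalisation was 0.043 ± 0.19 (SE), and it was -0.13 when scaled to library size, so the direction depended on the scaling. Only 4 of the 30062 nuclear regions in all 6 lists were taller. It stood alone in the sparse middle stretch, 111040 bases from the region before it and 71174 from the next. Its background was 2.64 to 3.76 fragments over the samples, above the floor, and its fold enrichment lay between 93.4 and 100.1. Its own fragments count in that background, so neither value is independent of its height. How much of the background they made up was not tested.

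The region from 33968015 to 33968230, of 216 bases, had heights of 215, 235 and 279 fragments in the Ezh2i samples, against 252, 218 and 216 in the controls. The region from 52738072 to 52738276, of 205 bases, had 223, 236 and 199 fragments in the Ezh2i samples, against 238, 241 and 174 in the controls. In both the ranges of the exposures overlapped. The fourth, from 41344244 to 41344471, had 199, 248 and 172 fragments with Ezh2i, against 255, 196 and 212 in the controls, a log2 difference of -0.18 ± 0.23 (SE), and the next region lay 126240 bases on. These 4 regions make up the long arm members with a mean height of 200 or more, and all lay in the middle stretch.

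The next 6 in height showed the same overlap of exposures. The region from 71962115 to 71962459 had 186, 169 and 228 fragments with Ezh2i, against 201, 208 and 137 in the controls. The region from 43143644 to 43143876 had 158, 216 and 145 fragments with Ezh2i, against 192, 188 and 143 in the controls. The region from 55452993 to 55453203 had 150, 116 and 161 fragments with Ezh2i, against 191, 133 and 91 in the controls. In all 3 regions control 3 was the lowest sample.

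The other 3 lay in the distal stretch. The region from 74929176 to 74929463 had 167, 157 and 213 fragments with Ezh2i, against 165, 195 and 135 in the controls. Close to it, the region from 74942986 to 74943287 had 137, 116 and 152 fragments with Ezh2i, against 130, 132 and 101 in the controls. The region from 72723393 to 72723752, the longest of the 10 at 360 bases, had 127, 110 and 126 fragments with Ezh2i, against 143, 134 and 84 in the controls. Over the 10 tallest regions the log2 differences lay between -0.18 and 0.10, with adjusted p of 0.939 to 0.995 (limma, Benjamini-Hochberg over all 30071 regions).

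**Figure D4:**
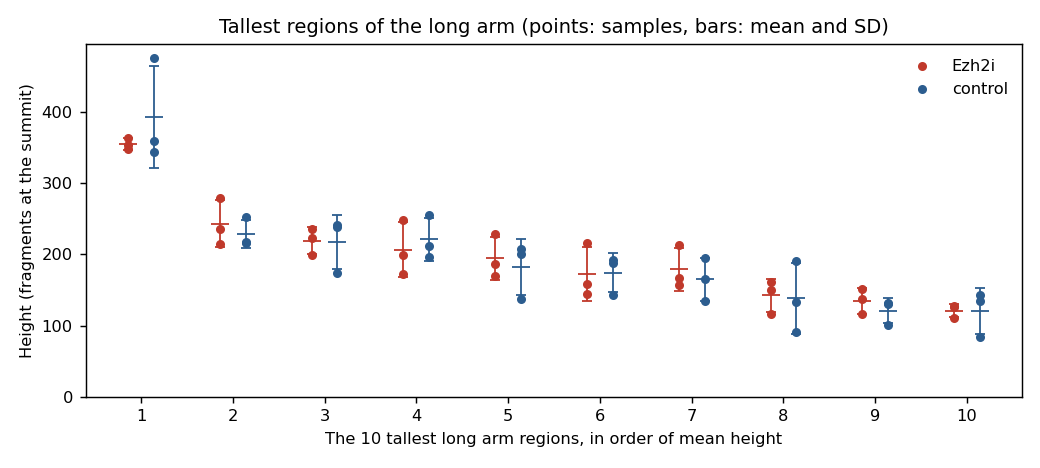
Height in fragments at the summit (y axis) of the 10 tallest long arm regions, in order of mean height (x axis), with each sample as a point and mean and SD as bars for 3 Ezh2i samples and 3 controls. The points of the exposures overlap in all 10 regions, and the tallest region, at 344 to 476 fragments, lies above all points of the others.

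The exposures were compared first over the arm as a whole. Of the peaks on chromosomes 1 to 25, the long arm took 1.62%, 1.62% and 1.79% in Ezh2i samples 1, 2 and 3. It took 1.58%, 1.69% and 1.5% in controls 1, 2 and 3. The ranges overlapped, with means of 1.68% ± 0.0977 in Ezh2i samples and 1.59% ± 0.0932 in controls (SD, n = 3 each, two-sided exact permutation test, p = 0.4, adjusted p = 0.72 over 9 long arm measures). With all lists cut to the same number of peaks the difference turned to -0.0080 percentage points. Peaks per Mb averaged 17.7 ± 2.07 in Ezh2i samples and 15.4 ± 1.47 in controls (SD, n = 3 each, exact permutation test, p = 0.2, adjusted p = 0.6). The percent of peaks in regions of all 6 lists averaged 42.8 ± 4.99 in Ezh2i samples and 48.9 ± 4.80 in controls (same exact test, n = 3 each, p = 0.2, adjusted p = 0.6). These regions are the same 376 in each sample, so this percent falls as a list grows and largely restates the peaks per Mb. Both measures went the same way on the other chromosomes, at means of 40.7 against 37.5 peaks per Mb and 56.2% against 60.9%. So they did on the rest of chromosome 4, at 43.5 against 41.1 peaks per Mb and 54.4% against 57.8%. With 3 samples a side the exact test cannot go below 0.1, so none of these tests could pass 0.05.

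The mean log2 height of the long arm regions in all 6 lists was 4.57, 4.47 and 4.65 in Ezh2i samples 1, 2 and 3, against 4.46, 4.51 and 4.26 in controls 1, 2 and 3. The values overlapped, control 3 was the lowest, and the means differed by 0.15 (exact permutation test, n = 3 each, p = 0.2, adjusted p = 0.6). Less the same mean over the other chromosomes, the values were -0.25, -0.21 and -0.22 in the Ezh2i samples, against -0.22, -0.21 and -0.31 in the controls. The difference between exposures was then 0.02 (exact permutation test, n = 3 each, p = 0.6), and without control 3 it was -0.010. The difference in length between long arm peaks and those of the other chromosomes was -19, -18 and -18 bases in the Ezh2i samples, against -17, -16 and -17 in the controls. These values did not overlap between exposures, a comparison made after they had been seen, with the smallest p the design allows (exact permutation test, n = 3 each, p = 0.1, not adjusted). The other within-sample differences gave larger p between exposures in this test. The long arm lengths themselves overlapped, at means of 118 bases in Ezh2i samples and 118.7 in controls (same exact test, n = 3 each, p = 0.9, adjusted p = 0.9).

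Of the 376 long arm regions in all 6 lists, 0 had an adjusted p under 0.05 between exposures (limma, Benjamini-Hochberg), as had 0.0% of all 30071 regions, where the smallest adjusted p was 0.746. This fit is of summit heights in regions of all 6 lists. The paper instead compared read counts with edgeR and reported differentially enriched peaks at the start sites of genes, so its result is of another measure and set. At an unadjusted p under 0.05, 21 long arm regions (5.59%) were higher in Ezh2i samples, against 3.19% of all regions, and 14 (3.72%) were lower, against 3.05% of all regions. Scaled to library size, 34 of the 376 were higher and 5 lower, and of all 30071 regions 1756 were higher and 248 lower. Without Ezh2i sample 3 the counts were 13 higher and 6 lower on the long arm and 717 higher and 729 lower over all regions. Without control 2, the number lower was 8 on the long arm and 753 over all regions. The log2 differences of the 376 regions had a median of 0.019, against -0.0012 over all regions, and the values at the 5% and 95% points of their order were -0.45 and 0.52. Of these regions 201 had a positive and 175 a negative difference, against 14975 and 15096 of all 30071 regions. On the rest of chromosome 4 the split was 251 and 377, with a median of -0.073. Quantile normalisation takes out a shift that all regions share, so these medians and this split cannot show one. Under the scaling to library size the median was 0.14 on the long arm, 0.12 over all regions and 0.055 on the rest of chromosome 4. A positive median was thus not particular to the long arm, but its size was not the same in all places.

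**Figure D5:**
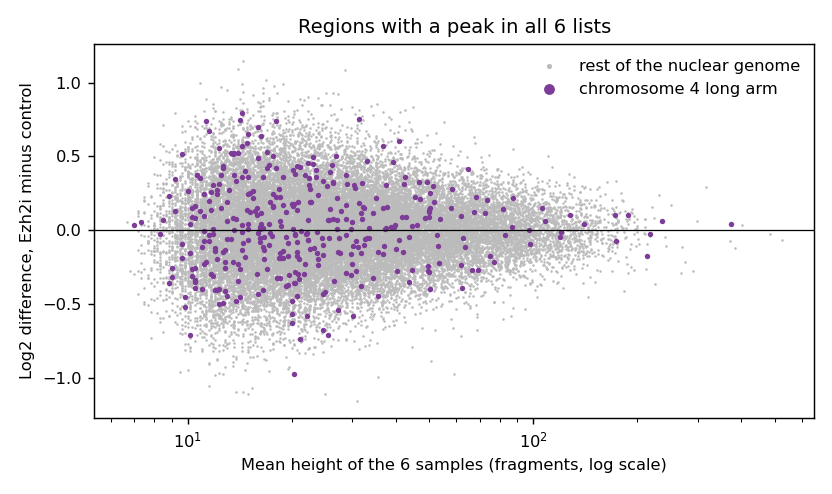
Log2 difference of Ezh2i less control (y axis) against the mean height of the 6 samples in fragments (x axis, log scale) for each region with a peak in all 6 lists, on the long arm and in the rest of the nuclear genome. The 376 long arm regions lie between -0.98 and 0.79 and within the spread of the others.

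The regions with the smallest unadjusted p were of low to middle height. From 61347973 to 61348140 the heights were 21, 17 and 17 fragments in the Ezh2i samples, against 10, 10 and 10 in the controls, and from 50260403 to 50260537 they were 15, 16 and 26, against 9, 10 and 10. From 74927048 to 74927191, in the distal stretch near 2 of the tallest regions, they were 41, 44 and 37 with Ezh2i, against 19, 21 and 26. The groups did not overlap in these 3, whose log2 differences were 0.75, 0.79 and 0.75 with unadjusted p of 0.00176, 0.0044 and 0.00461 and an adjusted p of 0.746 (limma).

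In the other direction, the heights from 31538769 to 31538997 were 18, 17 and 26 fragments in the Ezh2i samples, against 25, 31 and 31 in the controls, with a log2 difference of -0.68 ± 0.21 (SE). From 64714191 to 64714347 they were 9, 12 and 25 with Ezh2i, against 26, 30 and 20, and from 28595282 to 28595465 they were 20, 25 and 17 with Ezh2i, against 31, 25 and 35. The first 2 of these overlapped between exposures and the third touched at 25 fragments, and all had an adjusted p of 0.746 (limma). Scaled per fragment of the library, 36 of the 376 regions (9.57%) had every Ezh2i height above every control, against 9.65% of all regions, and 3 (0.798%) had every Ezh2i height below every control, against 1.9% of all regions.

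Presence of a peak was compared over all 1610 long arm regions. A peak in all 3 Ezh2i lists and in no control was found in 20 regions (1.24%), against 0.828% of all regions. A peak in all 3 controls and in no Ezh2i list was found in 7 (0.435%), against 0.345% of all regions. With lists of equal length the counts were 10 for Ezh2i alone and 5 for controls alone on the long arm, and 436 and 461 over all regions, so the balance over all regions turned round. Without peaks under 120 bases they were 3 and 1 on the long arm, and 397 and 171 over all regions. The 20 regions had heights of 6 to 20 fragments with a median of 10, and 2, 11 and 7 of them lay in the first, middle and distal stretches. The 7 had heights of 5 to 18 fragments with a median of 9, and 2 and 5 of them lay in the first and middle stretches.

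The tallest of the 20, from 76336386 to 76336503, had 20, 14 and 20 fragments in the Ezh2i samples and no peak in the controls. In a limma fit that also took regions absent from up to 3 lists and gave each absent peak the lowest height, it was the 1 region of 821 on the long arm (0.122%) with an adjusted p under 0.05, against 0.232% of all regions. It entered that fit only through the Ezh2i lists, and all 3 control heights were assumed, so this is a description of its presence in the lists and not a test. The next were the region from 61086135 to 61086287 with 19, 15 and 11 fragments and the region from 50217618 to 50217727 with 10, 10 and 20. Of those in controls alone, the tallest ran from 42765911 to 42766055 with 12, 18 and 13 fragments, followed by 46546092 to 46546208 with 10, 8 and 9 and by 28353504 to 28353590 with 10, 9 and 7.

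The longest regions differed from the tallest. The longest, of 735 bases from 77559185 to 77559919, had 51, 65 and 39 fragments in the Ezh2i samples, against 47, 62 and 57 in the controls. The second, of 704 bases from 58298075 to 58298778, had 21, 33 and 33 fragments with Ezh2i, against 18, 24 and 19, with Ezh2i sample 1 inside the range of the controls and a log2 difference of 0.33 ± 0.23 (SE). The third, of 629 bases from 74141260 to 74141888, had 30, 26 and 32 fragments with Ezh2i, against 32, 34 and 30. The mean heights of these 3 regions were 53.5, 24.7 and 30.7 fragments, above the long arm median of 20.5, and none of them was among the 10 tallest, which were 205 to 360 bases long.

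Windows of 100000 bases with 20 or more regions numbered 2 of 511 on the long arm and 73 of 12680 on the other chromosomes, and the counts are too small to set the arm apart in this. The densest, from 28500001 to 28600000, held 24 regions, 8 of them in all 6 lists, with 14, 19 and 16 peaks in the Ezh2i samples and 14, 18 and 16 in the controls. The summed height of these 8 regions per 1000000 fragments of the library was 58.9, 75.3 and 60.1 in Ezh2i samples 1, 2 and 3 and 62.3, 77.3 and 60.5 in controls 1, 2 and 3, so samples 2 of both exposures were highest. At 28565788 to 28566064 the heights were 73, 145 and 77 fragments with Ezh2i, against 77, 124 and 93, and at 28569753 to 28570164 they were 47, 93 and 56, against 51, 91 and 77. In the neighbour from 28513156 to 28513425, Ezh2i sample 2 was instead the lowest, with 120, 71 and 111 fragments with Ezh2i. The controls there had 98, 105 and 78 fragments, with control 2 again the highest of them.

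The second cluster, from 77900001 to 78000000 at the distal end, held 23 regions, 8 of them in all 6 lists. The summed height of these 8 per 1000000 fragments was 61.5, 55 and 61.6 in the Ezh2i samples, against 57.7, 53.0 and 45.2 in the controls, with the ranges overlapping. The third, from 74100001 to 74200000, held 15 regions, and the 4 of them in all 6 lists summed to 27.2, 23.4 and 34.6 in the Ezh2i samples, against 29.9, 25.7 and 22.1 in the controls. Neither cluster separated the exposures.

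At the boundary itself, the region just inside ran from 27066273 to 27066376 and had a peak in 2 lists, of 12 fragments in Ezh2i sample 1 and 10 in control 1. The region just outside ran from 26944383 to 26944476 and had 1 peak of 7 fragments, in Ezh2i sample 3. With the boundary at 30000000 the difference in peaks per Mb from the other chromosomes was -23.9, and the other 7 differences tested kept their sign and their p of 0.03125 (exact sign-flip permutation test, n = 6).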

How the data were processed

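Peak lists of 6 ATAC-seq samples were analysed. With snakePipes, the authors aligned trimmed reads to GRCz11 by Bowtie2, and MACS2 (version 2.1.1.20160309) listed the peaks of each sample on its own. The paper states that read depth was too low, so the fragment length was raised to include a nucleosome. Its own merge gave fewer peaks than the 85003 regions here. Fragment sizes in the headers were 75 to 79 bases. Per the file headers, MACS2 read fragments of paired ends without a control, at a cutoff of 0.001 on the q-value, with a genome size of 1368780147 bases, backgrounds from 10000 bases and 1 fragment per position. A filter on mapping quality is not given in the sources used here. Heights are the deposited signal, the pileup at the summit, and were whole in 100.0% of the 314307 peaks. The deposited fold enrichment is a ratio to the background, and backgrounds derived from it gave back the deposited −log10 p-values within 0.01 for 99.958% of peaks. The deposited −log10 q-values were used in an alternative with a minimum of 5.

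The chromosome 4 long arm, the stretches and the regions named were chosen with earlier results of these data known. Regions were named by rule: the 10 tallest, the 3 with the smallest p in each direction, the 3 tallest found in 1 exposure alone, the 3 longest, those beside the boundary and the 3 densest windows. Log2 heights of regions in all 6 lists were quantile-normalised and compared with limma (version 3.58.1, R 4.3.3), fitted to all regions. The fit was also run on simulated heights with independent normal noise, unlike these whole heights, and no conclusion is drawn from that run. Single values were compared with exact permutation tests in Python 3.11.15 (pandas 2.3.3, numpy 2.4.6, scipy 1.17.1). Tests for read counts were not used, since a height is coverage at the summit base. Alternatives were another boundary, stricter q-values, lists of equal length, no peaks under 120 bases, unplaced scaffolds added, other scalings, missing peaks at the lowest height, a replicate block and leaving out each sample. Sequences were not printed, since a genome of this build was not used here.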

Additional observations from a re-analysis of the deposited data

How the results depend on the processing

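The 8 within-sample differences between the long arm and other places kept their sign and a p of 0.03125 under the other boundary, stricter q-values, equal lists, no peaks under 120 bases and, where they apply, added scaffolds. Without peaks under 120 bases, 3 of them were smaller by over 1.5 times: -0.619 in fold enrichment, -11.5 bases and -17.1 peaks per Mb from the rest of chromosome 4. Leaving out 1 sample each gave p = 0.0625, the smallest that 5 samples allow in the exact sign-flip permutation test, with ranges of -22.8 to -22.1 and -26.1 to -25.6 peaks per Mb (other chromosomes, rest of chromosome 4), -13.5 to -11.2 points in regions of all 6 lists, -3.8 to -3.6 fragments, -1.14 to -1.03 in fold enrichment, -0.232 to -0.221 fragments of background, -17.8 to -17.2 bases and 30.5 to 32.3 points at the floor. The Ezh2i less control share of peaks turned to -0.0080 with equal lists, and the log2 height difference lay between -0.010 (without control 3) and 0.041 when a sample was left out. Regions of Ezh2i alone numbered 10 (of 436 over the genome) with equal lists, 3 (of 397) without peaks under 120 bases and 29 to 46 (1271 to 2415 over the genome) without 1 sample, and regions of controls alone 4 (of 258) with a −log10 q of at least 5, 1 (of 171) without peaks under 120 bases and 11 to 22 (528 to 929 over the genome) without 1 sample, where fewer lists have to hold or lack a peak. At an unadjusted limma p under 0.05, long arm regions numbered 34 higher and 5 lower scaled to library size (1756 and 248 of all 30071). With missing peaks at the lowest height they numbered 33 higher and 31 lower (1748 and 1696 of all 52189, of which 121 had an adjusted p under 0.05). Regions absent from 1 exposure entered that fit only through the other, against assumed heights, so these counts are a description and not a test. Without 1 sample, long arm regions at an unadjusted limma p under 0.05 numbered 13 to 25 higher and 6 to 18 lower (717 to 1108 and 729 to 1256 of all 30071). The replicate numbers did not pair the samples, with correlations of deviations of 0.098, -0.029 and -0.118. At an unadjusted limma p under 0.05, the replicate block gave 18 long arm regions higher and 13 lower (892 and 906 of all 30071). It gave 0 past the adjusted test, and p = 0.75 (exact sign-flip permutation test) for the share of peaks (0.0872 points) and for the log2 height difference (0.02). Among the named regions, the log2 difference changed sign at 63365137 (-0.13 scaled to library size, -0.054 to 0.17 without 1 sample), 33968015 (-0.0028 from fold enrichment, -0.037 to 0.18 without 1 sample), 52738072 (0.019 and 0.035 under these scalings, -0.13 to 0.085), 71962115 (-0.022 from fold enrichment, -0.026 to 0.17), 43143644 (0.042 from fold enrichment, -0.31 to 0.085), 74929176 (-0.065 from fold enrichment), 55452993 (-0.16 to 0.27 without 1 sample), 72723393 (0.039 scaled to library size, -0.19 to 0.10) and 77559185 (-0.46 to 0.0061 without 1 sample). The cause of these changes was not tested. Heights near the floor of 5 fragments limit what can be said of regions in few lists.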
